A study of Mus musculus with 23 samples.

Results

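The Sfmbt2 locus was taken as the stretch of mouse chromosome 2 that holds the RLTR11B element, the Sfmbt2 gene and the microRNA cluster in its intron, chr2:10360000-10600000 (GRCm38). Its members were all windows with their midpoint in this stretch. There were 41 such windows of 333984 in the table of the E6.5 libraries and 51 of 402812 in the tables of the E7.5 libraries. The rule used position only, and no methylation value, but the positions were chosen with earlier results of these data known.

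The study measured DNA methylation by post-bisulphite adaptor tagging (PBAT), which sequences bisulphite-converted DNA of few cells, in hybrid embryos of C57BL6/Babr (B6) and CAST/Ei (CAST) mice. At E6.5 the 15 libraries came from pooled tissue, as part of the input chromatin of a ChIP-seq experiment. B6/CAST and CAST/B6, in which the maternal strain is written first, each had 3 epiblast and 2 extra-embryonic ectoderm (ExE) libraries. The matDKO/CAST embryos had 2 epiblast and 3 ExE libraries and came from B6/129 females with floxed Dnmt3a and Dnmt3b and an oocyte-active Zp3-cre, crossed to CAST males. The embryos are labelled Dnmt3a -/+ and Dnmt3b -/+, so the de novo methyltransferases were missing in the oocyte while the paternal copies were present in the embryo. At E7.5 the 8 libraries came from single wild-type embryos, 2 for each combination of cross and tissue, and the maternal and paternal alleles were also given separately. Each E6.5 epiblast library came from a pool of 4 embryos and each ExE library from a pool of 8, so that n counts libraries. Every value is a percent methylation per window. The windows are labelled as 100 CpGs, and those of the locus held 45 to 118 CpGs (median 52) at E7.5 and 50 to 198 (median 60) at E6.5 as counted in the genome. No read coverage is given, so the depth is unknown and no counting error could be attached to any of them. Both tissues were dissected by hand and hold mixtures of cells, so a level is a mean over cells, and a change in the makeup of the cells cannot be told apart from a change within them. Nothing in the labels says how the E6.5 pools of a group were related, and the p-values measure the spread between these libraries.

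Sfmbt2 encodes a Polycomb group protein with MBT domains and is expressed from the paternal allele in extra-embryonic tissues, where it is needed for trophoblast growth. One of its introns carries a large rodent microRNA cluster. Upstream of the gene lies an LTR of an ERVK endogenous retrovirus, RLTR11B, which acts as a promoter in ExE. Imprinting of the locus is called non-canonical because it starts from maternal H3K27me3 and not from DNA methylation laid down in the oocyte.

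In genomic order the locus starts with the RLTR11B element at chr2:10364990-10365462, which is 473 bp long and holds 9 CpGs. The promoter peak of H3K4me3 used here spans chr2:10362000-10382500. Sfmbt2 (ENSMUSG00000061186.15) runs from 10370510 to 10595253 on the plus strand, with a first start at 10370510 and a second group of starts from 10372436. The non-coding gene Gm13261 (ENSMUSG00000086748.1) runs from 10339283 to 10374041 on the minus strand, and 3 RefSeq starts of Gm13261 lie within the LTR. The microRNA cluster spans 10465287 to 10518279 and holds 119 annotated hairpins, of which 29 are named Mir669, 23 Mir466, 14 Mir467 and 5 Mir297. At E7.5 the 51 windows were 766 to 11842 bp long. One of them lay upstream of the peak, 7 in the peak, 19 in the gene body before the microRNA cluster, 9 in the cluster, 14 after it and 1 at the end of the gene.

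The sequences before the starts are shown because the parental difference changed direction between them and the gene body. Each holds the 250 bases before a RefSeq start (RefSeq, GRCm38.p6), 5′ to 3′ on the strand of the transcript, with CpG dinucleotides in capitals. RefSeq starts need not coincide with those of the gene models above.
Gm13261 start in the LTR, chr2:10365124-10365373, minus strand: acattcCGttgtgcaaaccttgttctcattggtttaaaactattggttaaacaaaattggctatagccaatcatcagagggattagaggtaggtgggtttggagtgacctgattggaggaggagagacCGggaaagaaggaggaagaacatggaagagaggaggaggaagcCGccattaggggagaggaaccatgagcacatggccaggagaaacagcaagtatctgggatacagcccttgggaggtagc
Sfmbt2 first start, chr2:10370201-10370450, plus strand: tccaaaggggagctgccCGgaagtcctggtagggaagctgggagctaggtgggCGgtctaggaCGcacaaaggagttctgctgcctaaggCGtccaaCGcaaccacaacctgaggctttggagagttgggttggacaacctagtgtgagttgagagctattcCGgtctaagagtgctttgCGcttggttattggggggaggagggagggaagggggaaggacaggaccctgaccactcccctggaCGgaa
Sfmbt2 second start, chr2:10372186-10372435, plus strand: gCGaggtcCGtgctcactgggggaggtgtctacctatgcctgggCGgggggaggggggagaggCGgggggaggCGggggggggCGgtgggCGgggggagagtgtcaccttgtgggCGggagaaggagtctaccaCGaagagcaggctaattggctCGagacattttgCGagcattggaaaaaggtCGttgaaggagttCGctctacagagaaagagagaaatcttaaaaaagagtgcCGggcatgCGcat
The LTR sequence holds 3 CpGs, the first start of Sfmbt2 8 and the second 15. Of 32817 RefSeq promoters cut to the same length, 70.9% held at least 3 CpGs, 43.0% at least 8 and 27.3% at least 15. The letters CCAAT, counted on both strands, occurred 5 times in the LTR sequence, and 0.213% of the promoters held as many. They occurred 1 time before the first start of Sfmbt2 (33.8% of promoters had as many) and 2 times before the second (10.1%). CCAAT is the core of the motif of the factor NF-Y, and a match here is a description of the sequence only.

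The window over the LTR was more methylated on the maternal allele in every E7.5 ExE library. It spans chr2:10363671-10369394, 5724 bp with 50 CpGs, so that most of it lies outside the 473 bp of the element. The maternal allele was methylated at 58.1% and 47.2% in B6/CAST replicates 1 and 2, and at 44.7% and 43.2% in CAST/B6 replicates 1 and 2. The paternal allele of the same libraries was at 13.6%, 30.3%, 5.95% and 34.7%. All 4 maternal values lay above all 4 paternal values. The maternal minus paternal difference was 27.2 percentage points (SE 7.0, n = 4 libraries), with an unadjusted p of 0.00796 and an adjusted p of 0.777 by limma with Benjamini-Hochberg adjustment over all autosomal windows. It was 44.5 and 38.7 points in the libraries numbered 1 of the crosses, and 16.9 and 8.5 points in those numbered 2.

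In E7.5 epiblast the LTR window was methylated on both alleles. The maternal allele stood at 96.2%, 54.8%, 59.1% and 72.7%, and the paternal allele at 74.4%, 75.6%, 78.9% and 77.0%, with the libraries in the order used above. The alleles overlapped, and the mean difference of -5.82 points (SE 7.51) changed sign between libraries. It was -16.5 points without B6/CAST replicate 1, 4.82 without B6/CAST replicate 2, -1.93 without CAST/B6 replicate 1 and -9.72 without CAST/B6 replicate 2. The parental difference in ExE exceeded that in epiblast by 33.0 points (SE 10.8, unadjusted p = 0.0118, adjusted p = 0.932 by limma). Between the tissues the paternal allele differed most. It was 55.4 points higher in epiblast than in ExE (adjusted p = 0.00142, limma, n = 4 per tissue) with no overlap, while the maternal allele was 22.4 points higher (adjusted p = 0.0386) and the tissues overlapped. This maternal call was lost on the logit scale, with the mean of each library subtracted (6.26 points), and when any of 6 of the 8 libraries was left out, all but B6/CAST epiblast replicate 2 and CAST/B6 epiblast replicate 1. It was 14.0 points without B6/CAST epiblast replicate 1.

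**Figure D1:**
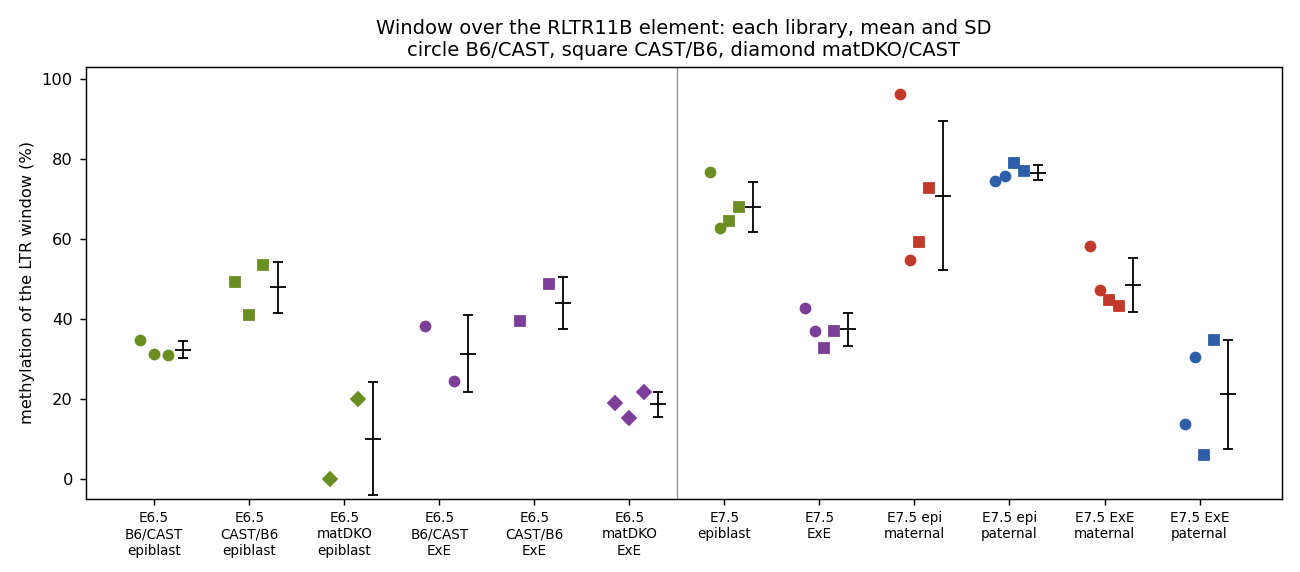
Percent methylation of the window over the RLTR11B element in every library (points), with the mean and SD of each group (bars), for E6.5 on the left and E7.5 on the right of the line. At E7.5 the paternal allele in ExE sat between 5.95% and 34.7%, below every value of the maternal allele in ExE and of both alleles in epiblast. The window borders differ slightly between the days.

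The window over the first Sfmbt2 start also carried more maternal than paternal methylation in ExE, at a much lower level. In chr2:10369517-10371183 the maternal allele was at 28.5%, 16.2%, 24.2% and 14.3%, and the paternal allele at 0.794%, 2.35%, 3.03% and 2.44%. All maternal values lay above all paternal values. The difference was 18.7 points (SE 4.50, n = 4), with an unadjusted p of 0.00589 and an adjusted p of 0.777 by limma. As at the LTR, it was larger in the libraries numbered 1, at 27.8 and 21.2 points, than in those numbered 2, at 13.8 and 11.8 points. In epiblast both alleles were at or below 10.7% wherever a value was given, and the maternal value of CAST/B6 replicate 2 was missing, so that the window was left out of the test, which required both alleles in every library.

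Further into the promoter peak the direction turned. The window over the second group of starts, chr2:10371216-10372485, had a maternal value in only 2 of the ExE libraries, 44.8% in B6/CAST replicate 2 and 13.6% in CAST/B6 replicate 1, and 3 paternal values between 0.00% and 1.75%. The window after it had no allelic value, and the one up to 10374592 had 1 in ExE. In chr2:10374615-10375551 the paternal allele was higher in all 4 ExE libraries, at 10.7%, 35.8%, 41.5% and 17.3% against 6.08%, 18.6%, 3.49% and 12.2% on the maternal allele. The difference was -16.2 points (SE 6.32). It was -8.02 points without CAST/B6 replicate 1 and -24.4 without CAST/B6 replicate 2. In epiblast the same window had maternal values of 1.20%, 5.71%, 0.00% and 2.08% and paternal values of 12.5%, 52.0%, 0.00% and 4.36%. The difference there was -15.0 points (SE 6.34), negative in 3 libraries and 0 in 1, and it was -6.22 without B6/CAST replicate 2 and -23.7 without B6/CAST replicate 1. In chr2:10375552-10381944 it was -18.2 points in ExE (SE 3.93) and -18.9 points in epiblast (SE 6.31), so that the means of both windows were negative in both tissues. The ExE libraries of the second all had the same direction, and in epiblast 1 of the 4 had the opposite one. The epiblast difference there was between -25.7 points, without CAST/B6 replicate 1, and -12.1, without CAST/B6 replicate 2.

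Along the gene body of Sfmbt2 the paternal allele was more methylated in ExE. Both alleles were given in all 4 ExE libraries for 43 of the 51 windows of the locus. Of these, 41 had a negative maternal minus paternal difference and 2 a positive one, the LTR and first-start windows. The paternal allele was higher in every library in 31 windows, where 6.27% of all autosomal windows were, and the maternal allele in 2, where 6.32% of all windows were. At an unadjusted p under 0.05 (limma), 33 windows were higher on the paternal allele (background 3.22%) and 2 on the maternal allele (3.15%). None passed the adjusted threshold of 0.05, which 0.00722% of all windows passed, and the lowest adjusted p in the locus was 0.672. The median difference was -18.8 points in the locus and -0.0786 points over all 318358 windows tested. Neighbouring windows come from the same embryos, so that they are not independent.

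Over the 37 gene body windows in ExE, methylation averaged 59.7% ± 3.55 (SD, 4 libraries) on the maternal allele. On the paternal allele it averaged 81.0% ± 1.64 (SD, 4 libraries). Over all autosomal windows the maternal and paternal alleles averaged 59.4% and 59.5%. The maternal allele of the gene body thus lay near the autosomal mean, and the paternal allele above it. The difference per library was -17.7 and -20.8 points in B6/CAST and -25.7 and -21.2 points in CAST/B6, and every paternal library mean lay above every maternal one. All 37 windows had a negative difference, and 28 had it in every library. The smallest was -1.12 points in chr2:10423703-10427574, where 2 libraries had each direction.

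**Figure D2:**
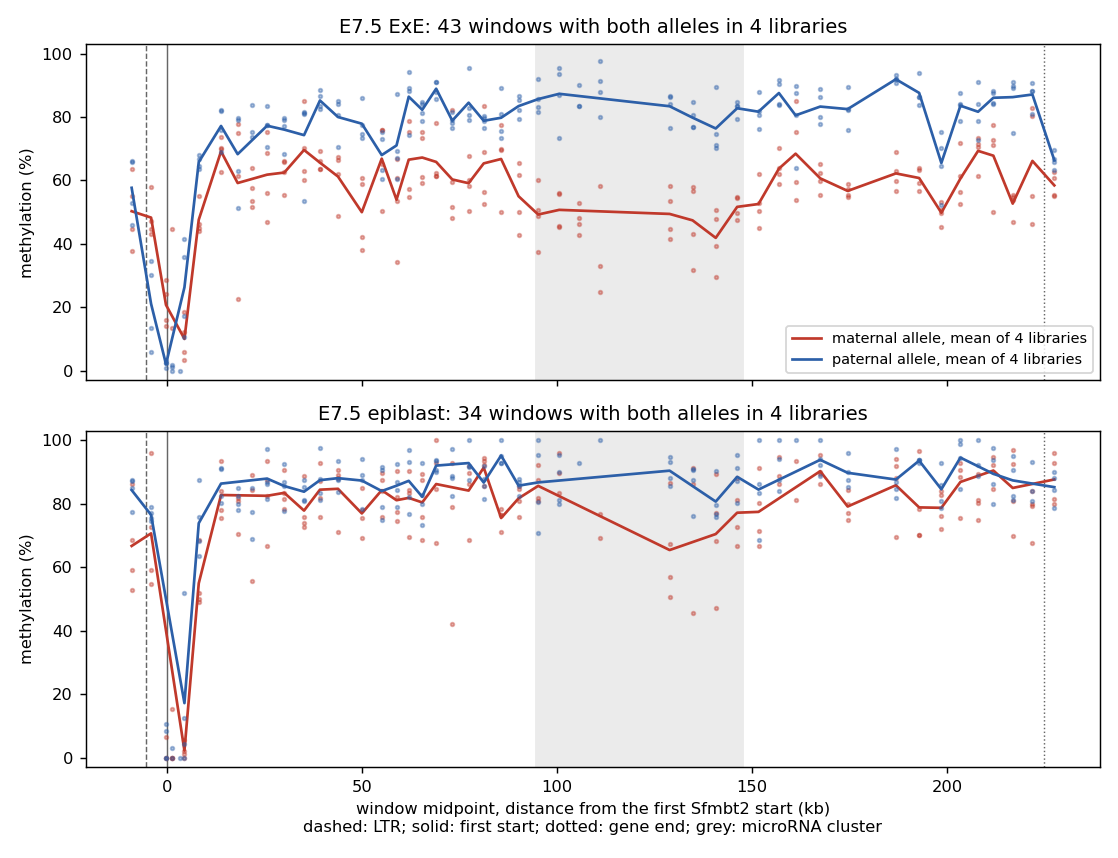
Percent methylation of the maternal (red) and paternal (blue) allele in E7.5 ExE (top) and epiblast (bottom), against the distance of each window's midpoint from the first Sfmbt2 start in kb. Points are libraries and lines are means of 4 libraries over windows with both alleles in all of them. In ExE the lines cross close to the start and stay apart over most of the gene, while in epiblast they run close together except at a few windows.

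The microRNA cluster had the widest gap of any region of the locus. Its 6 windows with complete values in ExE averaged 48.4% ± 1.21 maternally and 82.5% ± 3.18 paternally (SD, 4 libraries). The difference was -29.6, -35.3, -35.5 and -36.1 points in the 4 libraries, a mean of -34.1 ± 3.03 (SD). The maternal allele lay below its own level before the cluster (62.6% ± 5.38, 18 windows) and after it (60.9% ± 2.39, 13 windows), whereas the paternal allele was at 78.8% ± 2.64 before it and 83.5% ± 2.47 after it. The difference was -16.2 ± 4.85 points (SD, n = 4) before the cluster and -22.6 ± 2.33 after it. In each library the difference was larger in the cluster than on either side. No test was made between regions, since they were drawn with results of these data known.

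Among windows with complete values, the 3 with the largest paternal excess in ExE lay in the cluster. In chr2:10462825-10468654, which holds 9 hairpins, the maternal allele was at 50.6%, 60.3%, 37.5% and 48.8% and the paternal allele at 81.5%, 83.3%, 85.8% and 92.0%. The difference there was -36.4 points (SE 4.04), with an unadjusted p of 9.77e-05 and an adjusted p of 0.672 by limma. The differences were -36.6 points in chr2:10468687-10473576, with 7 hairpins, and -34.5 points in chr2:10508454-10514035, with 15. In these 3 windows every maternal value lay below every paternal value. The smallest difference of a complete window in the cluster was -31.1 points, in chr2:10514125-10519343. Windows with a missing allele were not ranked. Of these, chr2:10478889-10484309 had maternal values of 33.2%, 25.0% and 58.3% against paternal values of 97.6%, 87.9% and 80.0% in the 3 libraries with both, a wider gap than in the named windows in B6/CAST.

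From 10458589 to 10590385 the paternal allele was higher in all 4 ExE libraries in 19 consecutive windows with complete values. The longest such run elsewhere on the autosomes held 6 windows, and the longest maternal run of any place held 8. The measure was chosen after the values had been seen. The window at the end of the gene, chr2:10594391-10601637, had a smaller difference of -7.93 points, again negative in every library.

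**Figure D3:**
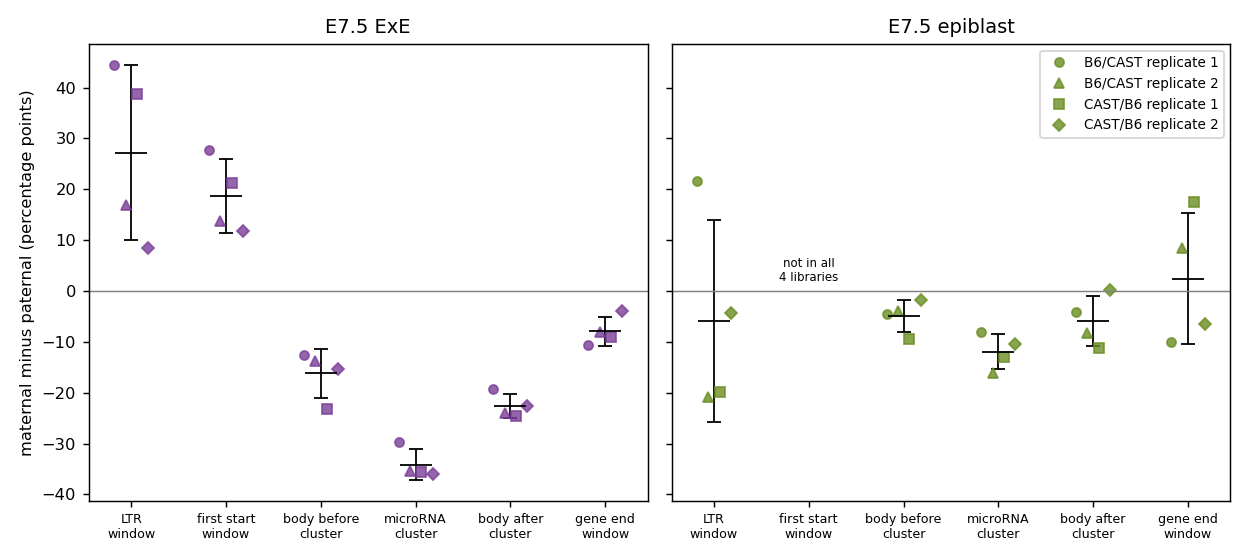
Maternal minus paternal methylation in percentage points for each E7.5 library (symbols), with the mean and SD (bars), by region of the locus in ExE (left) and epiblast (right). In ExE the LTR and first-start windows lay above 0 in all 4 libraries and the gene body and cluster below 0 in all 4, whereas in epiblast the cluster mean was -11.9 points and the LTR window had both signs. The first-start window is missing in epiblast because it had no complete values.

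In epiblast the same direction appeared in the gene body with a smaller size. Of the 34 windows with complete values, 30 had a negative difference, the paternal allele was higher in every library in 5 (6% of all windows) and the maternal allele in 0 (5.75%). At an unadjusted p under 0.05 there were 6 windows higher on the paternal allele (background 2.54%) and 0 on the maternal allele (2.33%). None passed the adjusted threshold by limma, which 0.00838% of all windows passed. The 29 gene body windows averaged 81.8% on the maternal and 87.9% on the paternal allele, a difference of -6.17 ± 3.40 points (SD, n = 4) that was negative in each library, from -2.41 to -10.4. In the cluster it was -11.9 ± 3.50 points over 4 windows.

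The complete window with the largest difference in epiblast was chr2:10496567-10502268 in the cluster, at -25.0 points (SE 4.77, unadjusted p = 0.00162, adjusted p = 0.941 by limma). Next came chr2:10453890-10458588, at -19.7 points (SE 4.18) and before the cluster, where the maternal allele was between 71.0% and 78.3% and the paternal allele between 92.9% and 100%. The largest positive differences in epiblast were 4.70, 2.41 and 1.03 points, in windows starting at 10449673, 10594391 and 10580558, none of which had the same direction in all 4 libraries. The first of these was 9.27 points without B6/CAST replicate 1 and 0.142 without B6/CAST replicate 2.

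Tested directly, the parental difference was more negative in ExE than in epiblast in 29 of 34 windows, with a median of -14.8 points against 0.0184 over all windows. At an unadjusted p under 0.05 it was more negative in 13 (background 2.62%) and more positive in 1 (2.67%), the LTR window. In 7 windows every ExE library was more negative than every epiblast library, which held for 1.32% of all windows. None passed the adjusted threshold by limma, and neither did any autosomal window (0%). The largest gap between the tissues was -35.3 points (SE 6.91, adjusted p = 0.932), at the first window of the cluster. There the epiblast difference was -1.09 points.

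The B6 minus CAST difference of the same fits had both signs in the locus. It ranged from -16.6 to 16.1 points over single windows in ExE and from -13.8 to 9.21 in epiblast. In ExE none of 43 windows had the same direction in all 4 libraries, where 9.13% of all windows did with B6 higher and 6.77% with CAST higher. A window with the same parental direction in every library cannot have the same strain direction in every library. In ExE 31 windows had the paternal and 2 the maternal allele higher in every library, so this count cannot speak on the strain there. The same limit holds in epiblast. The median strain difference was 1.42 points. None passed the adjusted threshold (0% of all windows), and 3 had an unadjusted p under 0.05, 2 with B6 higher (5.25%) and 1 with CAST higher (3.48%). In epiblast 0 of 34 windows passed the adjusted threshold by limma (0% of all windows) and 0 had an unadjusted p under 0.05 (3.91% of all windows with B6 higher and 2.74% with CAST higher). One window had B6 higher in every library (7.89%). At the LTR window in ExE the strain difference was 3.54 points (SE 7.0), against the parental difference of 27.2, and it lay between -4.03 and 11.1 when 1 CAST/B6 library was left out.

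Among genes, Sfmbt2 stood at the end of the distribution in ExE. Of 2035 genes with at least 20 windows with complete values, it had the lowest mean maternal minus paternal difference, -21.1 points over 39 windows, of which 76.9% were higher on the paternal allele in every library. Next was Smoc1, a gene with another upstream RLTR11B element, at -13.4 points over 30 windows, and then Zan at -6.35 points. The median of the genes was 0.358 points. In epiblast Sfmbt2 again had the lowest mean, -6.87 points of 1480 genes, and Cacng2 followed at -4.91. By the share of windows higher on the paternal allele in every epiblast library, 16.1%, it ranked 23 among these genes. The ranking was made after the values had been seen, and is a description.

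**Figure D4:**
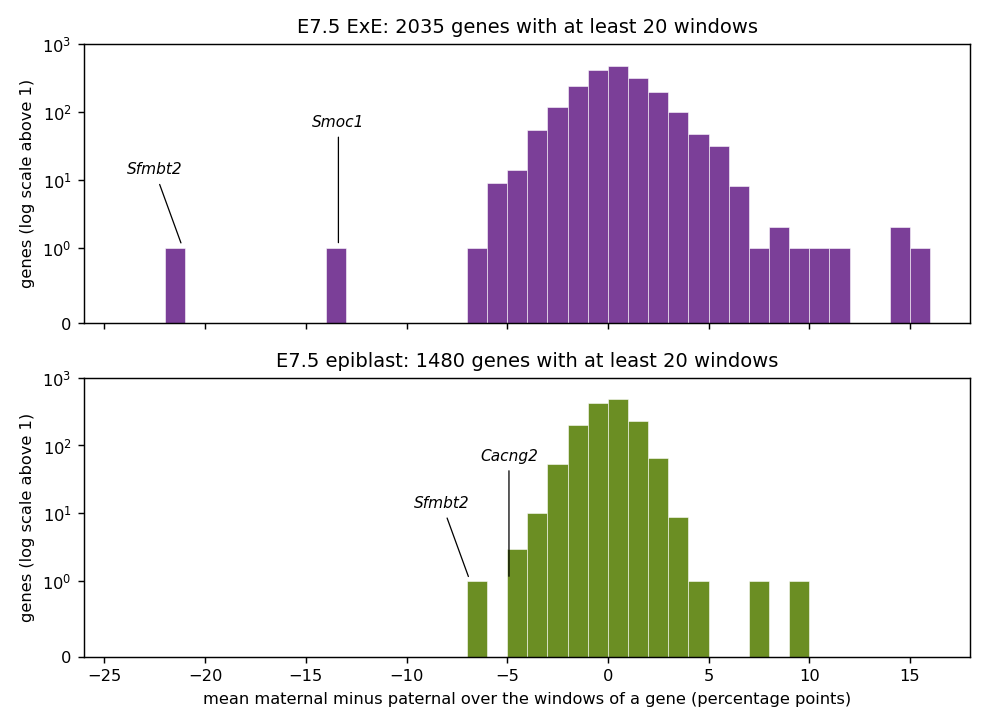
Number of genes (log scale above 1) by the mean maternal minus paternal difference over their windows, in percentage points, in E7.5 ExE (top, 2035 genes) and epiblast (bottom, 1480 genes). Sfmbt2 and Smoc1 stand apart from the other genes on the negative side in ExE, at -21.1 and -13.4 points.

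The other transcribed ERVK LTRs that the study places in non-canonically imprinted peaks were compared with the Sfmbt2 element by their values alone, since the study chose them on these tissues. In ExE the maternal excess was 44.6 ± 5.56 points (SD, n = 4) at the Gab1 LTR, 35.2 ± 15.9 at the Slc38a4 LTR and 19.05 ± 17.2 at the Smoc1 LTR, beside 27.2 ± 17.2 at Sfmbt2. At the other 4 elements, 2 upstream of Phf17 (Jade1) and 1 each near Sall1 and 5133400J02Rik, it was between 4.78 and 10.6 points. Over the whole gene the mean difference in ExE was -3.70 points for Gab1, 3.53 for Slc38a4, 2.56 for Jade1 and -4.08 for Sall1, against -13.4 for Smoc1 and -21.1 for Sfmbt2.

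The paternal excess also extended upstream of the locus, over Gm13261. RefSeq extends this gene to 10327340, and its 6 windows before 10360000 had a median difference of -25.7 points in ExE, between -35.2 and -20.2, with 5 of them higher on the paternal allele in every library (6.27% of all windows). In epiblast 5 windows had a median of -16.0 points, and 4 had the paternal allele higher in every library (6% of all windows). The window between this stretch and the LTR window, chr2:10359452-10363644, had a difference of -7.37 points in ExE and -17.6 in epiblast, each with 1 library of the opposite sign. Leaving out 1 library gave -12.8 to -1.96 points in ExE, without B6/CAST replicates 1 and 2, and -26.5 to -8.70 in epiblast, without the same replicates. Within 100 kb upstream of the locus 8 of 22 windows were higher on the paternal allele in every ExE library and 1 on the maternal allele (6.32% of all windows). Those outside Gm13261 were chr2:10322946-10327554 at -16.5 points, chr2:10303627-10309067 at -14.4 and chr2:10309068-10312049 at -12.5, and the window with the maternal allele higher was chr2:10300320-10303602 at 15.8 points. Over 1 Mb the median was 0.739 points upstream (182 windows) and -1.49 points downstream (155 windows). The 11 other protein-coding genes with windows within this distance had medians in ExE between -4.10 points at 4930412O13Rik, over 2 windows, and 2.33 points at 9230102O04Rik, over 3 windows.

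With the alleles together, the locus was more methylated in epiblast than in ExE at E7.5, except around the Sfmbt2 starts. Of 51 windows 43 passed the adjusted threshold (limma), 40 with epiblast higher, where 82.9% of all windows did so, and 3 with ExE higher, where 1.3% did. The LTR window was at 76.7%, 62.7%, 64.3% and 67.9% in epiblast and at 42.7%, 37.0%, 32.7% and 36.8% in ExE. The tissues did not overlap, and the difference of 30.6 points was the largest of the locus (SE 3.32, adjusted p = 0.000120, limma). The gene body averaged 84.0% ± 2.29 in epiblast and 69.9% ± 2.03 in ExE (SD, n = 4), against 73.9% and 57.6% over all windows. The median difference was 13.3 points in the locus and 16.5 over all windows. Relative to the mean of each library over all autosomal windows, most of the calls with epiblast higher were lost. Of 51 windows 10 passed, 2 with epiblast higher (19% of all windows), the LTR window among them, and 8 with ExE higher (20.8%).

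The 3 windows with ExE higher all lay at or just inside the start of Sfmbt2, where both tissues were at low levels. The first-start window was at 1.30%, 1.69%, 8.00% and 1.09% in epiblast and at 10.1%, 8.28%, 13.1% and 12.4% in ExE, with no overlap. Its difference was -7.94 points (SE 2.22, adjusted p = 0.00906, limma). The differences were -9.30 points (adjusted p = 0.0326) in the window over the second starts, where the tissues overlapped and the call was lost in 5 of the 8 fits that left out 1 library (all but B6/CAST epiblast replicate 2, B6/CAST ExE replicate 1 and CAST/B6 ExE replicate 2), and -12.5 points (adjusted p = 0.00916) in chr2:10374615-10375551, where they did not. Of the other windows between these, chr2:10372488-10373253 was at 0.00% in every epiblast library and at most at 3.83% in ExE. The next, chr2:10373254-10374592, was at 0.969%, 2.62%, 7.0% and 0.958% in epiblast and at 10.2%, 8.69%, 3.44% and 10.9% in ExE. The tissues overlapped there, and the difference was -5.42 points (SE 2.61, adjusted p = 0.0797, limma). It passed the threshold on the logit scale, with the library mean subtracted, with the trended and robust variance, and without CAST/B6 epiblast replicate 1 or CAST/B6 ExE replicate 1.

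**Figure D5:**
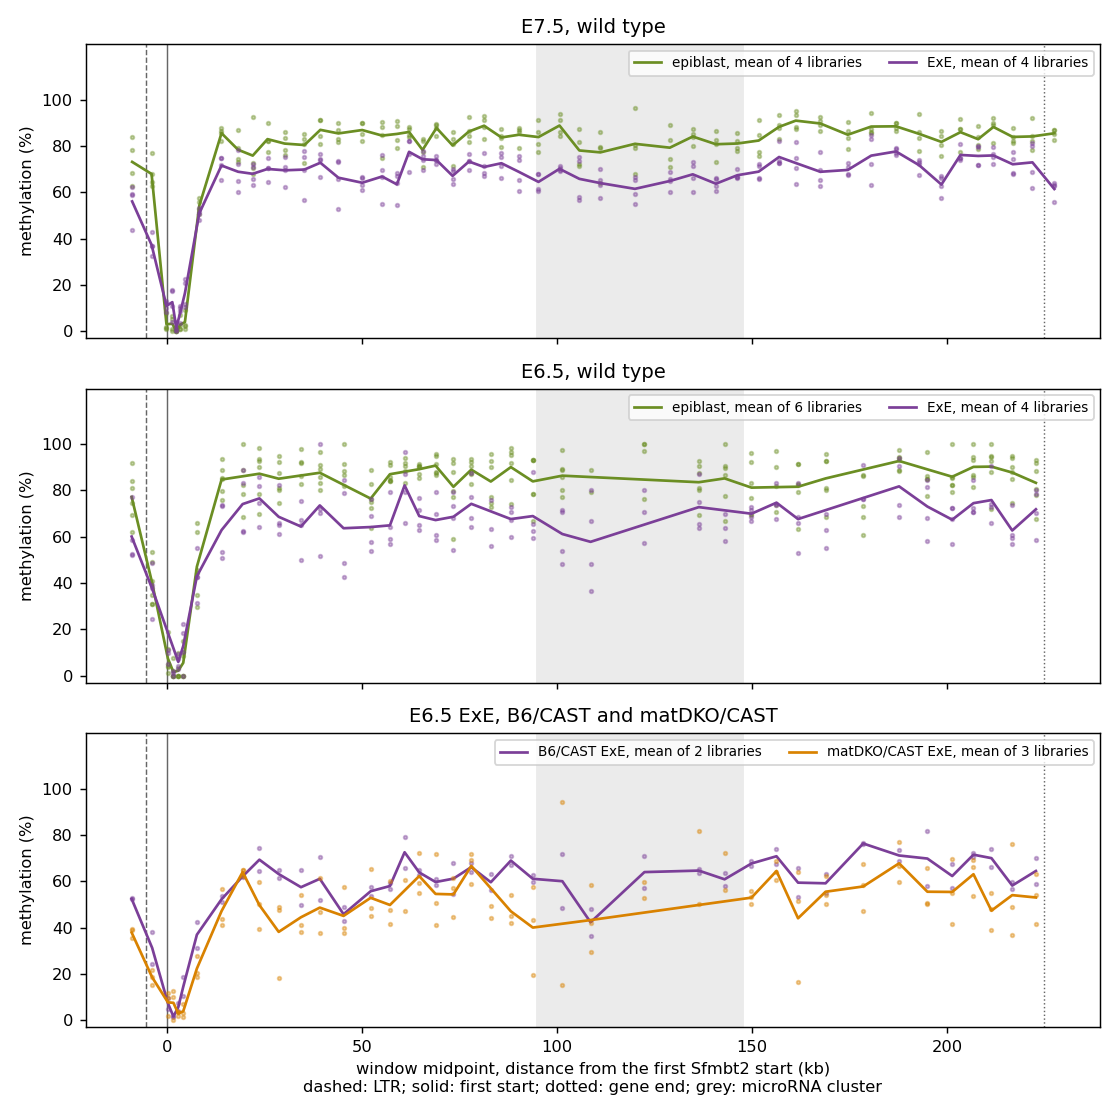
Percent methylation of both alleles together, against the distance of each window's midpoint from the first Sfmbt2 start in kb, for E7.5 wild type (top), E6.5 wild type (middle) and E6.5 ExE of B6/CAST and matDKO/CAST (bottom). Points are libraries and lines are group means over windows with complete values. The low stretch at the start is shared by all groups, epiblast lies above ExE over the gene body on both days, and matDKO/CAST lies below B6/CAST over most of the gene.

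Taken by allele, the tissue difference of the gene body lay mainly on the maternal allele. On that allele 27 of 36 windows of the locus passed the adjusted threshold with epiblast higher (59% of all windows), and the median difference was 22.4 points against 16.0 over all windows. On the paternal allele 9 of 40 windows passed (59.6% of all windows), all with epiblast higher, and the median was 7.58 points against 16.1. Without B6/CAST epiblast replicate 1 or CAST/B6 ExE replicate 1 the paternal count was 5 (49% and 48.1% of all windows). In the gene body 25 of 31 windows passed on the maternal and 6 of 34 on the paternal allele. In the cluster 3 of 4 passed on the maternal and 0 of 6 on the paternal allele, where the median was 5.03 points and none had an unadjusted p under 0.05 (limma), which 65.8% of all windows had with epiblast higher. With the mean of each library subtracted the median was 6.29 points on the maternal and -8.57 points on the paternal allele, with 2 windows called on each allele, 1 in each direction (3.75% and 5.64% of all windows with epiblast and ExE higher on the maternal allele, and 3.67% and 5.64% on the paternal allele). The test of the difference between the alleles is the one between the parental differences of the tissues given above.

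At E6.5 epiblast was the more methylated tissue over most of the gene body, and the tissues overlapped at the LTR. Of the 41 windows 27 had a value in all 10 wild-type libraries. The adjusted threshold was passed by 17, all with epiblast higher, where 59.6% of all windows did so, and the median difference was 14.4 points against 16.6. With the mean of each library subtracted, 2 windows passed, both with ExE higher (8.66% of all windows). The count was 2 with the replicate number as a block (21.3% of all windows), 11 with no cross term (47%) and 7 with a minimum difference of 20 points (38.6%). The 22 gene body windows averaged 86.2% ± 5.38 (SD, n = 6) in epiblast and 69.6% ± 7.52 (SD, n = 4) in ExE. The LTR window, chr2:10363506-10369847 in this table, was at 34.8%, 31.2% and 30.8% in B6/CAST epiblast and at 49.2%, 40.8% and 53.4% in CAST/B6 epiblast. In ExE it was at 38.0% and 24.5% in B6/CAST and at 39.4% and 48.6% in CAST/B6. The tissues overlapped, and their difference was 2.42 points (SE 4.31, adjusted p = 0.637, limma). It lay between 0.151 points, without B6/CAST ExE replicate 2, and 5.35, without B6/CAST ExE replicate 1. None of the 4 peak windows tested passed, and none had an unadjusted p under 0.05 (limma), which 65% of all windows had with epiblast higher.

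Between the days values can only be set side by side, since the tables were made from different material and differ in window borders. The LTR window averaged 40.0% (n = 6) in E6.5 and 67.9% (n = 4) in E7.5 epiblast, and 37.6% and 37.3% in ExE (n = 4 each). The gene body averaged 86.2% and 84.0% in epiblast and 69.6% and 69.9% in ExE. No test was made.

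At E6.5 B6/CAST was less methylated than CAST/B6 in the locus and over all windows. The median B6/CAST minus CAST/B6 difference was -6.75 points in epiblast, beside -8.36 over all windows, and -14.2 points in ExE, beside -11.6. In epiblast every B6/CAST library was lower in 8 of 32 windows (24.3% of all windows), and in ExE in 26 of 34 (54.3%). No window passed the adjusted threshold by limma in either tissue (0% of all windows). At an unadjusted p under 0.05, 5 windows were lower in B6/CAST in epiblast (18.8%) and 1 was higher (0.173%), and 6 were lower in ExE (24.8%). In ExE the gene body mean was 63.2% ± 0.403 for B6/CAST against 76.1% ± 1.48 for CAST/B6 (SD, 2 libraries each), with no overlap. The strain of the mother and that of the father change together between the crosses and cannot be told apart here. Both B6/CAST ExE columns and a B6/CAST epiblast column are marked as imported again, and no CAST/B6 column is. In ExE this mark cannot be told apart from the cross either, and its meaning is not given.

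The matDKO/CAST libraries were lower than B6/CAST over the locus, where the maternally deleted embryos were lower over the whole genome. In epiblast the median difference was -16.3 points over 15 windows and -16.3 over all windows. All matDKO/CAST libraries lay below all B6/CAST libraries in 8 windows (49.4% of all windows), and 7 had an unadjusted p under 0.05 (32.2%). In ExE the median was -8.16 points over 35 windows and -12.2 over all windows, with 13 windows fully below (47.7%) and 7 at an unadjusted p under 0.05 (26.5%). No window passed the adjusted threshold by limma in either tissue, and no autosomal window did (0%). With both crosses pooled as wild type, 8 of 15 windows passed in epiblast (47.7% of all windows) and 7 of 31 in ExE (26.3%), all lower in matDKO/CAST. The gene body averaged 65.5% ± 3.18 (n = 2) against 81.3% ± 4.53 (n = 3) in epiblast over 12 windows, and 52.8% ± 1.97 (n = 3) against 62.5% ± 0.508 (n = 2) in ExE over 28 windows (SD).

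At the LTR window the matDKO/CAST epiblast libraries were at 0.00% and 20%, below the 3 B6/CAST libraries, and the difference was -22.3 points (SE 7.79, adjusted p = 0.124, limma). It was -12.3 points without matDKO/CAST replicate 1 and -32.3 without matDKO/CAST replicate 3. With both crosses pooled as wild type it was -30.0 points and passed the adjusted threshold. In ExE the matDKO/CAST libraries were at 18.9%, 15.3% and 21.6%, all below both B6/CAST libraries, and the difference was -12.7 points (SE 6.32, adjusted p = 0.238). It was -5.92 points without B6/CAST replicate 1 and -19.4 without B6/CAST replicate 2. Relative to the mean of each library over all autosomal windows it was -5.66 points in epiblast and -0.443 in ExE. At the first-start window ExE of matDKO/CAST was at 1.85%, 9.68% and 11.8% and of B6/CAST at 5.07% and 9.72%, which overlapped. The change in ExE minus that in epiblast was 9.57 points at the LTR (SE 10.1, adjusted p = 0.899, limma), and -0.426 without matDKO/CAST epiblast replicate 1. Over 15 windows none passed this test (0% of all windows), and 2 had an unadjusted p under 0.05 with a positive difference (5.59%). Within matDKO/CAST, epiblast lay above ExE by a median of 14.2 points over 19 windows, beside 12.6 over all windows. None passed the adjusted threshold (0% of all windows), and 4 windows had an unadjusted p under 0.05 with epiblast higher (26.2%) and 1 with ExE higher (0.6%). The E6.5 table does not separate the alleles, so that the alleles of matDKO/CAST were not compared.

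The tissue labels were checked by methylation at the starts of marker genes. At E7.5 the window at Elf5, a trophoblast regulator, was lower in ExE (median 62.8%) than in epiblast (85.2%), and those at the pluripotency genes Pou5f1 (38.1% against 18.1%) and Nanog (55.7% against 44.5%) were higher in ExE, with no overlap in any of them. At E6.5 the medians had the same directions and the libraries overlapped.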

How the data were processed

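Percent methylation per window came from the 3 tables deposited by the authors, who per the study's methods trimmed PBAT reads (Trim Galore 0.4.4) and aligned them with Bismark 0.20.0 (versions from the submitters' processing notes) to GRCm38, assigned E7.5 reads to alleles at B6/CAST SNPs, and took the percentage of methylated calls in windows given as 100 CpGs. The paper's methods name other versions of both tools. Whether the matDKO/CAST percentages include reads from the study's second alignment of that cross, for 129 alleles, is not given in the sources used here. The E7.5 bisulphite reaction had been repeated after poor conversion, and 5 of the E6.5 columns, all of B6/CAST or matDKO/CAST, are marked as imported again. One E6.5 B6/CAST epiblast column has a number that matches no sample of its group, and it was used as an unnumbered library of the group. No read counts are given, so depth and counting error are unknown, and windows with missing alleles were left out of the allelic tests. All per-sample columns were used.

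Windows were joined to the locus by midpoint, in Python 3.11.15 (pandas 2.3.3). Differences were fitted with limma 3.58.1 in R 4.3.3 on percent values over all autosomal windows with a value in every library of the comparison, with cross as a covariate between tissues, and Benjamini-Hochberg adjusted p-values at 0.05. Parental differences were maternal minus paternal within each library, with an intercept for the parent and a term for the cross coded as 1 and -1, whose coefficient gives the strain difference. "All windows" are the windows of the same fit, and "not overlapping" means that every library of one group lies above every library of the other. The scripts were tested on simulated data. The members, regions and gene lists were chosen with earlier results of these data known. The windows named are those over the LTR, the first Sfmbt2 start and the peak, the 3 with the largest maternal and paternal difference per tissue, and the extremes of the microRNA cluster. Other windows, the gene ranking and the runs were chosen after their values were seen. Promoter sequences and RefSeq starts came from RefSeq tables of GRCm38.p6, and gene models from GENCODE identifiers in the reference annotation. Alternatives covered scale, variance settings, chromosomes, a 20-point minimum difference, alternate windows, missing values, mean subtraction, the cross term, the replicate number as a block, the wild type used, regional averages and leaving out each library.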

Additional observations from a re-analysis of the deposited data

How the results depend on the processing

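Counts of windows past the adjusted threshold (limma) stayed at 0 for every parental, strain, cross and interaction comparison under all settings tried, so these settings say nothing of the stability of the parental differences, which kept their direction in ExE at the LTR, first-start and named cluster windows in every setting. The tissue counts moved, and the share of all autosomal windows past the threshold in the same setting follows each in brackets. At E6.5 the 17 of 27 windows became 7 with a minimum difference of 20 points (38.6%), 8 of 13 with every second window (60.4%), 2 with the library mean subtracted (14.9%), 11 with no cross term (47%) and 2 with the replicate block (21.3%), and 12 to 20 when each library was left out (48.7% to 61.8%). At E7.5 the 43 of 51 windows became 5 (36.4%), 22 of 26 (84.2%) and 10 (39.8%) under the first 3 of these settings. For the maternal allele the 27 windows became 15 of 19 with every second window (59.5%) and 2 with the library mean subtracted (9.39%). For the paternal allele the 9 windows became 2 with the minimum difference (34.9%), 4 of 21 with every second window (60.1%) and 2 with the library mean subtracted (9.32%). Leaving out each library gave 5 to 8 (48.1% to 57.2%), with 5 without B6/CAST E7.5 epiblast replicate 1 or CAST/B6 E7.5 ExE replicate 1. With both crosses pooled as wild type, matDKO/CAST changed from 0 windows to 8 of 15 windows in epiblast (47.7% of all windows) and 7 of 31 in ExE (26.3%). Using every second window leaves fewer windows to count, and the cause of the other shifts was not tested.

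Directions turned at few windows. The E6.5 tissue difference of the LTR window was -14.1 points with the library mean subtracted and -0.388 with the replicate block, and the paternal-allele tissue difference of the first-start window was -13.5 with the library mean subtracted, where the tissue difference at chr2:10375552-10381944 was -13.1. The parental difference of the LTR window in epiblast was 0.00942 on the logit scale and ranged from -16.5 to 4.82 when each library was left out, and its strain difference in ExE was -0.00347 and ranged from -4.03 to 11.1. The matDKO/CAST change in ExE minus that in epiblast at the LTR ranged from -0.426 to 19.6. The parental difference in ExE at chr2:10423703-10427574 ranged from -6.84 to 4.60 when each library was left out. In epiblast it ranged from -4.27 to 6.33 at chr2:10580558-10584218, where it was -0.119 on the logit scale, and from -3.59 to 8.41 at chr2:10594391-10601637. The parental difference of the gene body after the cluster in ExE was -25.8 points as a median over windows. Replicate numbers were not shown to pair libraries. Correlations of deviations between same-numbered libraries were from -0.0996 to 0.0322 at E6.5, where most pairs came from different crosses. Between epiblast and ExE at E7.5 they were 0.0506 in B6/CAST and 0.0486 in CAST/B6. With 2 libraries a group at E7.5 each cross gives a single value, so these cannot decide whether the numbers pair libraries. The replicate block moved no other count by more than 1.5 times. Over all values and settings, 678 alternatives left the direction and the call or size as reported, 18 moved a value, 17 turned a direction, 13 ended a call and 7 made one. The 678 are no measure of stability. They include counts that stayed at 0 and LTR settings that pick the same window, which could not change. A window that never passed the threshold was counted among them whenever its direction was kept, whatever its size. Of the 13, 8 concern the maternal-allele tissue difference of the E7.5 LTR window (1.81 on the logit scale, 6.26 points with the library mean subtracted, and 14.0 to 24.5 points in 6 of the 8 leave-one-out fits), and 5 the E7.5 tissue difference over the second starts (-9.76 to -6.95 points, each with 1 library left out). Of the 7, 5 are at chr2:10373254-10374592 (-5.42 points as reported), 1 at chr2:10372488-10373253 with the library mean subtracted (-17.8) and 1 is the matDKO/CAST difference of the epiblast LTR window with both crosses pooled as wild type (-30.0).

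With 2 to 6 libraries a group, unknown depth and windows of several kilobases, differences limited to the LTR itself cannot be resolved.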
